A study of Mus musculus with 6 samples.

Results

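The ligands of the tumour necrosis factor (TNF) superfamily and their receptors were followed in mouse aortic arches that received marrow with or without Mir21. Members were taken by the gene names printed in the array files, namely every Tnfsf and Tnfrsf number together with Tnf, Lta, Ltb, Fas, Fasl, Cd40, Cd40lg, Cd27, Cd70 and Ngfr. This gave 51 of 55681 probes, which stand for 40 genes, 16 of them ligands and 24 receptors. Only 6 of the 24 receptors were grouped here as death-domain receptors, so the set is wider than the death receptors alone. The recipients were female Mir21+/+ mice with the strain label C57BL/6. They were irradiated over the whole body with 2 doses of 5 Gy inside 4 h and were given donor marrow through the tail vein on the following day, from either Mir21+/+ donors (wild-type marrow) or Mir21–/– donors (knockout marrow). A high-fat diet began 3 weeks after irradiation and was fed for 12 weeks to both groups, and arch RNA was then read on 1-colour arrays, with 3 mice per group. Both groups therefore share the irradiation, the transplant and the diet, and the deletion is carried by marrow-derived cells while the cells native to the arch keep Mir21. The array held 0 probes named Mir21, so the deletion could not be checked on it. The series title names apoptosis under circadian control, and the comparison asks whether arch levels of these ligands and receptors depend on Mir21 in marrow-derived cells. The labels give no hour of sampling.

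Ligands of this superfamily are trimers, made as membrane proteins and often shed, and each trimer draws together several receptor chains. Receptors with a death domain, such as Fas and the receptor of Tnfsf10 (TRAIL), can recruit Fadd and caspase-8 and start apoptosis. Other receptors bind TRAF adaptors and activate NF-kappa B, and decoy receptors bind a ligand without passing on a death signal. In atherosclerotic lesions, macrophages, T cells, smooth muscle and endothelial cells can all make or answer such ligands.

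The sequences that define the experiment and the probes are shown first. The deleted microRNA gene, Mir21a in RefSeq, gives 2 mature strands, read here from RefSeq on build GRCm38.p6 at chr11:86584120-86584141 (5p) and chr11:86584082-86584103 (3p), both on the minus strand. Capitals mark the seed, bases 2 to 8, through which a microRNA mainly pairs with its target.
mmu-miR-21a-5p: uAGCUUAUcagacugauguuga
mmu-miR-21a-3p: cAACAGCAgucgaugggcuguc
No probe on the array is named for them. Each member was read by 60-base probes, and 3 are printed because they show what such a probe holds: the brighter Tnfrsf1a probe, the dimmer Tnfsf12 probe and the tested Tnfrsf14 probe. Their positions on mm9 are chr6:125311922-125311981 (plus strand), chr11:69500528-69500587 (minus strand) and chr4:154300709-154300768 (minus strand), as the scanner files give them.
Tnfrsf1a: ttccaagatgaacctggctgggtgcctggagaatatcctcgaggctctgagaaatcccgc
Tnfsf12: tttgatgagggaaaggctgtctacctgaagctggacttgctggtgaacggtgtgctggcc
Tnfrsf14: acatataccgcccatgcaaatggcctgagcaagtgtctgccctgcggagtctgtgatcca
Another probe is shown in part for what it contains. The brighter of the Tnfrsf9 probes ends in a run of 22 bases of GT repeat, in capitals in its last 30 bases.
Tnfrsf9: taaaatcaGTGTGTGTGTGTGTGTGTGTGT

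Values below are log2 signals relative to the 75th percentile of the same array, so that 0 is the level of a bright spot and each step of 1 is a doubling. They are given in the order wild-type marrow replicates 1, 2 and 3, then knockout marrow replicates 1, 2 and 3. Replicate numbers are taken only as names of the mice. Differences are knockout minus wild-type marrow, with the standard error (SE) and p-values of limma, a linear model fitted over all probes with a shared estimate of spread. A level on one probe cannot be set against that of another probe. Tests took the probes that stood clearly over background, by the scanner software, in every mouse of one group or both. This held for 40 member probes of 32 genes (9 of 16 ligands and 23 of 24 receptors).

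No member passed the test adjusted over all 38342 tested probes. The adjusted p was under 0.05 for 0 of 40 member probes and for 1 probe in all (0.00261%), and the smallest adjusted p among members was 0.524, for Tnfsf10. At an unadjusted p under 0.05, 1 member probe had a difference above 0 (Tnfsf14) against 4.44% of all tested probes, and 2 had a difference below 0 (Tnfsf10 and Fasl) against 4.27%. In percent, the members stood at 2.5% and 5%, near the background on both sides. Of these, Fasl entered the tests through the wild-type arrays only, the group where it was higher. The groups did not overlap, with knockout marrow lower, for 5 of 40 member probes (12.5%, against 6.14% of all), and with knockout marrow higher for 1 (2.5%, against 7.58%). By gene, at the brightest tested probe, the median difference was 0.096, with 20 genes above 0 and 12 below, beside a median of 0.0082 over all 17542 genes. Of all genes, 0.0057% passed the adjusted test, against 0 of 32 member genes. At an unadjusted p under 0.05 in limma the members had 1 gene above (3.12%) and 2 below 0 (6.25%), where all genes had 3.38% and 3.89%. Groups did not overlap for 1 member gene above (3.12%) and 5 below (15.6%), where all genes had 6.07% and 5.79%. The 5 include Fasl, tested through the wild-type arrays only, and Tnfrsf9 at its probe with the GT repeat.

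**Figure D1:**
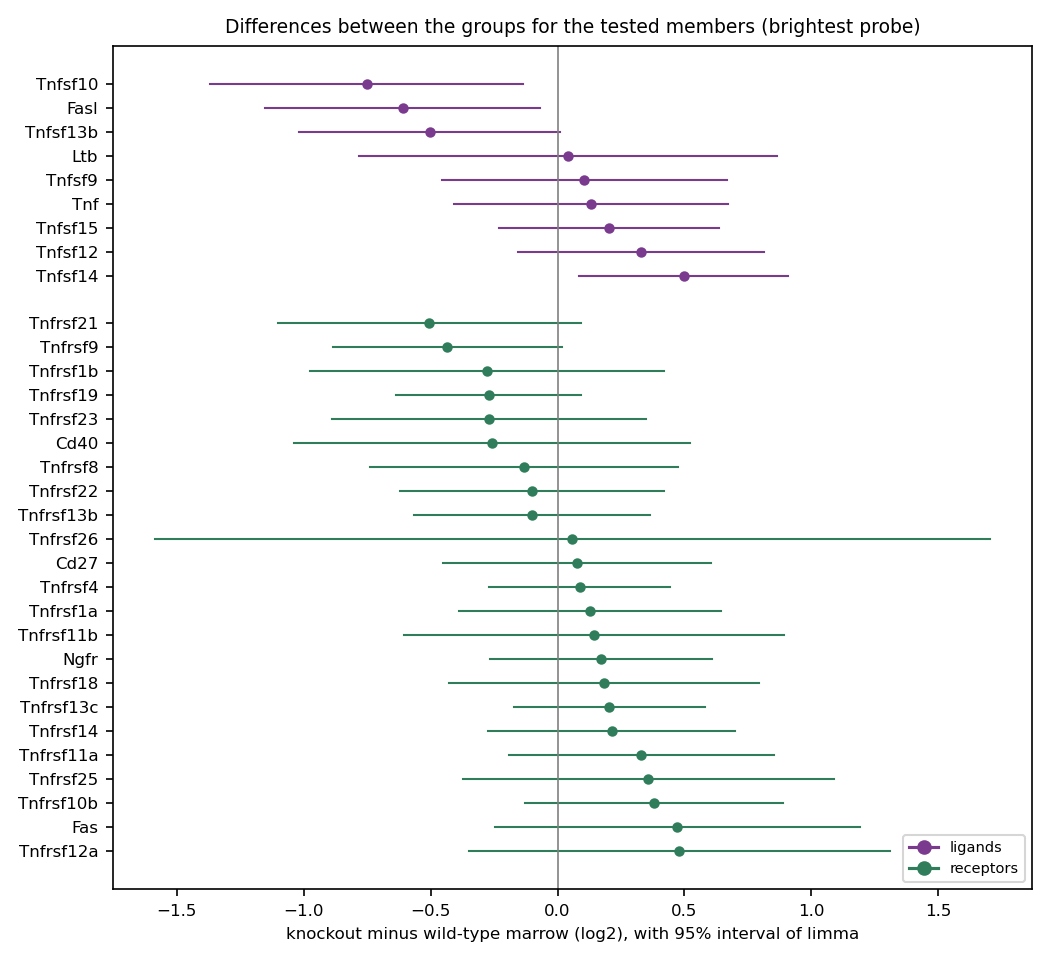
Knockout minus wild-type difference on the log2 scale (x axis) for the 32 tested member genes, each at its brightest tested probe, with dots for the estimate and bars for the 95% interval of limma, in purple for 9 ligands and green for 23 receptors. The intervals of Tnfsf10 and Fasl lie below 0 and that of Tnfsf14 above it before any adjustment. The widest belongs to Tnfrsf26, which was not well above background on knockout replicate 1.

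These counts changed when single mice were left out, which also leaves fewer arrays in the test. With wild-type replicate 3 left out, 0 member genes had an unadjusted p under 0.05 in either direction, and the same was found with knockout replicate 3 left out. Without knockout replicate 1 the count above 0 was 5, without wild-type replicate 2 the count below 0 was 4, and without knockout replicate 2 it was 1. Knockout replicates 2 and 3 also stood apart in their tissue markers. Over 9 adipocyte markers their mean deviation from the 6-array mean was -1.28 and -2.61, against 0.39 to 1.31 on the other 4 arrays. Lep alone went the other way, at -0.83 and -0.57 against -1.78 to -1.12 elsewhere. Immature thymocyte markers were also lower in these mice, at -1.17 and -0.90 against 0.29 to 0.65 elsewhere. Among them Cd1d1 ranged most, at -0.33 and -1.81 against 1.67 to 3.75 elsewhere. The 8 smooth muscle markers were at 0.26 and 0.45 against -0.29 to -0.05. By gene, Myh11, Cnn1, Mylk and Myocd were higher on both arrays than on the other 4, while Acta2, Tagln, Smtn and Des overlapped. All 9 adipocyte and all 8 smooth muscle markers were well above background on every array, as were 3 of 7 thymocyte markers, and none of the 3 lists had a member that was below background throughout. Macrophage markers were detected on all arrays for 9 of 10 genes and ranged from -0.49 to 0.35 with wild-type and from -0.51 to 0.73 with knockout marrow. All 8 endothelial markers were well above background on every array. Their mean deviation was 0.02, -0.09 and -0.45 on the knockout arrays, each lower than on the wild-type arrays (0.22, 0.18 and 0.12). Gene by gene, only Esam and Flt1 were lower on every knockout array. The other endothelial genes overlapped between the groups, with Kdr highest on knockout replicate 3 (3.96) and Tie1 on knockout replicate 1 (0.79). The 6 cardiac muscle markers, also well above background throughout, were at 1.77, -1.29 and 1.16 with knockout marrow and -0.85, -0.06 and -0.73 with wild-type marrow. For 13 tested members the difference without knockout replicates 2 and 3 is also given below, and the part of these markers in the results was not tested. Fewer cells of a type and less RNA per cell cannot be told apart in arch RNA. The position on the slide and the marrow genotype also cannot be told apart, since wild-type arrays lay in row 1 and knockout arrays in row 2 of a single slide.

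Among the 3 tested death ligands, Tnfsf10 and Fasl, which can kill through the TRAIL receptor and Fas, gave differences below 0. Tnf did not. The median, -0.61, is the value of Fasl itself, which was dim and entered the tests through the wild-type arrays only. Tnfsf10 (TRAIL), which binds Tnfrsf10b in mice and triggers apoptosis mainly in stressed or transformed cells, was read at chr3:27238508-27238567 on mm9. It measured -1.08, -0.78 and -0.32 with wild-type and -1.09, -1.83 and -1.53 with knockout marrow. Every knockout array lay under every wild-type array, but knockout replicate 1 and wild-type replicate 1 were only 0.012 apart. The means were -0.73 ± 0.38 and -1.48 ± 0.37 (SD, n = 3 each), a difference of -0.75 ± 0.26 (SE), or 1.69-fold lower. Its 95% interval ran from -1.37 to -0.14, and the adjusted p in limma was 0.524 (0.0232 before adjustment). Without knockout replicates 2 and 3 the difference was -0.36, with an adjusted p of 0.699 in limma. Leaving out wild-type replicate 3, knockout replicate 2 or knockout replicate 3 gave -0.55, -0.58 and -0.73, with unadjusted p in limma of 0.0857, 0.0805 and 0.0535.

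Fasl, the ligand of Fas on activated T and natural killer cells, was read at chr1:163711056-163711115 on mm9. It measured -4.15, -4.20 and -3.55 with wild-type and -4.39, -4.47 and -4.87 with knockout marrow. The groups did not overlap and were 0.19 apart, and wild-type replicate 3 was the highest and knockout replicate 3 the lowest array. The probe was dim: on knockout replicate 3 it was not well above background, so it entered the tests through the wild-type arrays only. Knockout replicate 3 was also the dimmest array, with a 75th percentile of 238.9 signal units against 329.5 to 407.2 on the others. Its share of spots well above background was 66.4%, against 70.3% to 74.4% on the others. The difference was -0.61 ± 0.23, with an adjusted p of 0.543 in limma (0.0322 before adjustment). It was 0.0078 after normexp, another background correction, which was run with an added offset of 50 signal units. Whether the correction or the offset changed the sign of the difference was not tested. Without wild-type replicate 3 or knockout replicate 3 it was -0.40 and -0.46, with unadjusted p of 0.12 and 0.101 in limma. Without knockout replicates 2 and 3 together it was -0.43, with an unadjusted p of 0.232 in limma, and without knockout replicate 2 alone it was -0.66 with a p of 0.0501. Markers of cells that make Fasl gave other values: over 10 T cell markers, all 10 well above background on every array, the deviations ran from -0.09 to 0.17 with wild-type and from -0.31 to 0.33 with knockout marrow. Of 8 natural killer cell markers, 4 were well above background on every array and Ncr1 and Klrk1 on none, and the list ran from -0.28 to -0.14 and from -0.13 to 0.52.

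Tnf, the inflammatory cytokine after which the family is named, was read at chr17:35336795-35336854 on mm9. It measured -4.04, -4.12 and -4.11 with wild-type and -3.66, -3.76 and -4.46 with knockout marrow. The wild-type arrays lay close together, between knockout replicate 3 below and the other two above, and on knockout replicate 3 Tnf was not well above background. The difference was 0.13 ± 0.23, with a 95% interval from -0.41 to 0.67. Without knockout replicate 1 it was -0.017, without knockout replicate 2 it was 0.030 and without knockout replicate 3 it was 0.38. Without knockout replicates 2 and 3 together it was 0.43. Lta, the soluble lymphotoxin, stayed at background on every array and was not tested.

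**Figure D2:**
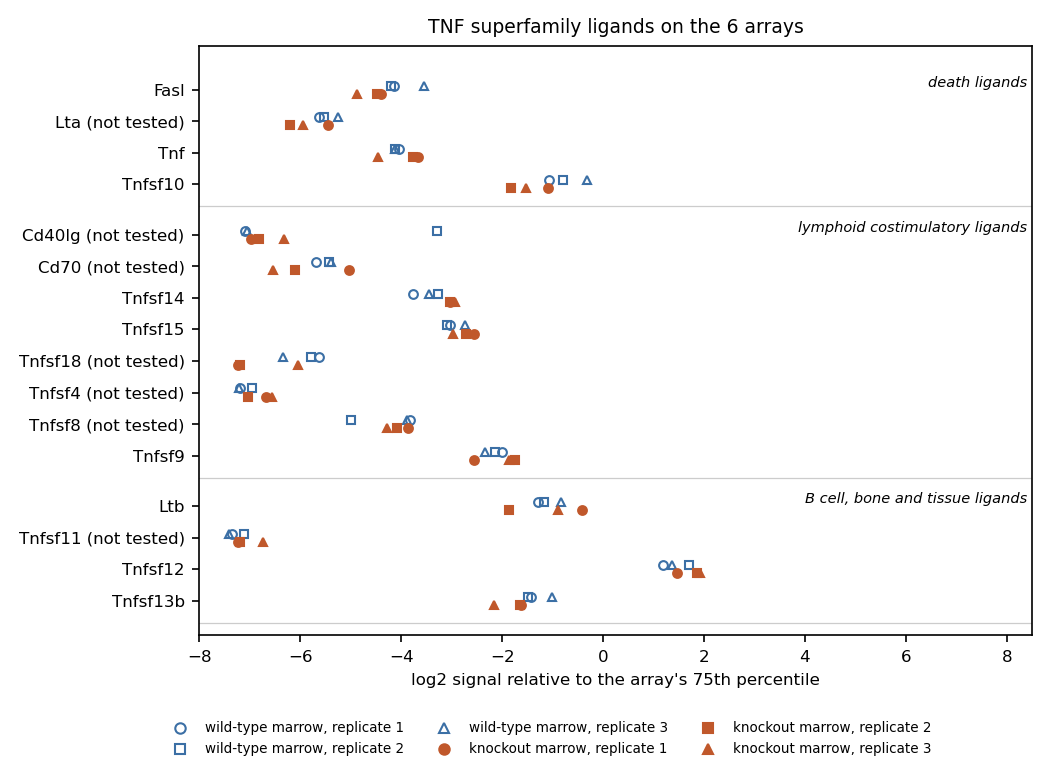
Log2 signal relative to the array's 75th percentile (x axis) for the 16 ligand genes, with open blue symbols for the 3 wild-type marrow arrays and filled orange symbols for the 3 knockout marrow arrays, the shape giving the replicate. Tnfsf10, Fasl and Tnfsf13b have every knockout symbol left of the wild-type ones and Tnfsf14 has them to the right. Ligands marked as not tested are shown at their brightest probe.

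Of the 6 death-domain receptors, 5 had a difference above 0 and 1 below, with a median of 0.26, and 0 had an unadjusted p under 0.05. Fas, the receptor of Fasl, was read at chr19:34402164-34402223 on mm9. It measured 3.45, 2.78 and 2.65 with wild-type and 2.87, 3.66 and 3.77 with knockout marrow. The groups overlapped: knockout replicates 2 and 3 were the highest arrays, wild-type replicate 1 came next, then knockout replicate 1, and the other wild-type arrays were lowest. The difference was 0.47 ± 0.31 with a 95% interval from -0.25 to 1.19, and it was -0.093 without knockout replicates 2 and 3. It was 0.71 when wild-type replicate 1 was left out and 0.75 when knockout replicate 1 was.

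Tnfrsf10b, the death receptor for Tnfsf10, was read at chr14:70184141-70184200 on mm9. It measured 0.73, 0.99 and 0.74 with wild-type and 0.77, 1.41 and 1.41 with knockout marrow. Knockout replicates 2 and 3 again lay above all others and knockout replicate 1 within the wild-type range. The difference was 0.38 ± 0.22 with a 95% interval from -0.13 to 0.89, and it was -0.046 without those mice. Without knockout replicate 1 it was 0.59.

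Tnfrsf1a, the main death-domain receptor for Tnf, had a pair of tested probes. The brighter, printed above, measured 3.57, 3.67 and 3.35 with wild-type and 3.23, 3.92 and 3.82 with knockout marrow, a difference of 0.13 ± 0.22 that became -0.30 without knockout replicates 2 and 3. The other, at chr6:125312376-125312435 on mm9, measured 3.56, 3.69 and 3.63 with wild-type and 3.47, 3.67 and 3.41 with knockout marrow, a difference of -0.11 ± 0.15. The groups overlapped on both, and the sign was not the same. The other death-domain receptors also overlapped between the groups. Tnfrsf25 (DR3), the receptor of Tnfsf15, differed by 0.36 ± 0.31 and Ngfr, the low-affinity neurotrophin receptor, by 0.17 ± 0.19. Tnfrsf21 (DR6), which has a death domain but no classical family ligand, differed by -0.51 ± 0.26, with wild-type values of -0.33, -1.30 and -0.92 and knockout values of -1.26, -1.29 and -1.52. Here the knockout arrays lay at the low end of the wild-type range or under it.

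**Figure D3:**
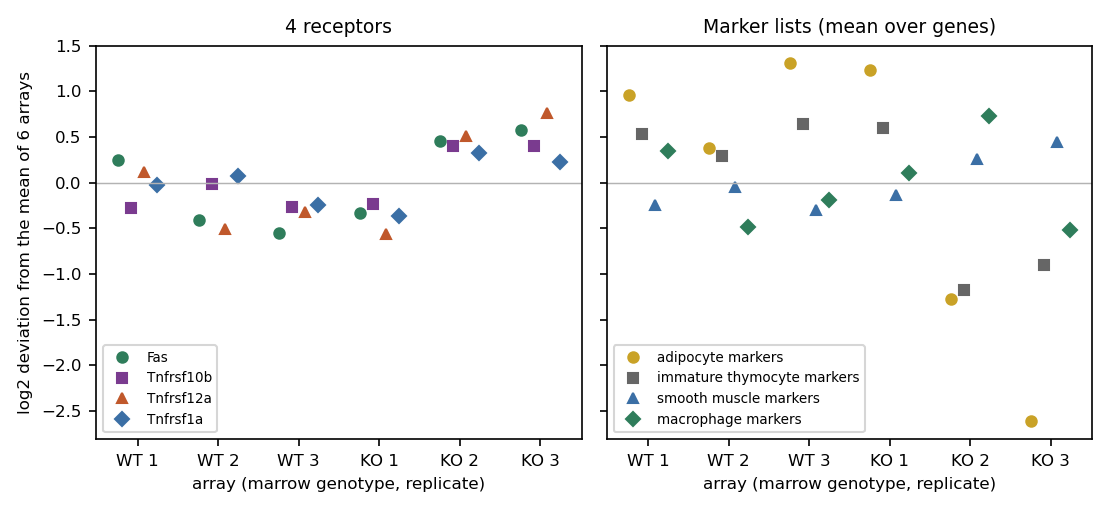
Log2 deviation from the mean of the 6 arrays (y axis) on each array (x axis, WT for wild-type and KO for knockout marrow) for Fas, Tnfrsf10b, Tnfrsf12a and Tnfrsf1a at left and for the mean over 4 marker lists at right, with symbols of an array set slightly apart. All 4 receptors are above their mean on knockout replicates 2 and 3, the arrays on which the adipocyte markers stand at -1.28 and -2.61 and the smooth muscle markers at 0.26 and 0.45. Tnfrsf1a is drawn at its brighter probe, and its other probe was lowest on knockout replicate 3 (3.41).

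The 3 decoy receptors had a median difference of -0.10 and overlapped between the groups. Tnfrsf11b (osteoprotegerin), the secreted decoy for Tnfsf11 that also binds Tnfsf10, measured 1.06, 1.73 and 1.02 with wild-type and 0.90, 2.00 and 1.34 with knockout marrow, a difference of 0.14 ± 0.32. The highest array of each group was its replicate 2. Tnfrsf22 and Tnfrsf23, mouse decoys for Tnfsf10, differed by -0.10 ± 0.22 and -0.27 ± 0.27, and the brighter Tnfrsf23 probe held -0.35 on knockout replicate 2 and -1.39 on knockout replicate 3. The dimmer probes of these genes gave -0.50 ± 0.40 for Tnfrsf22 and -0.016 ± 0.19 for Tnfrsf23.

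Of the 8 ligands that costimulate lymphocytes, 3 were tested and all 3 had differences above 0, with a median of 0.20. Tnfsf14 (LIGHT), a ligand for Tnfrsf14 and the lymphotoxin beta receptor, was read at chr17:57329192-57329251 on mm9. It measured -3.77, -3.27 and -3.46 with wild-type and -3.03, -3.04 and -2.93 with knockout marrow. The knockout arrays lay within a narrow band above all wild-type arrays, with a gap of 0.23. The difference was 0.50 ± 0.18, or 1.41-fold, with a 95% interval from 0.09 to 0.91 and an adjusted p of 0.525 in limma (0.0241 before adjustment). Without knockout replicates 2 and 3 it was 0.47, with an unadjusted p of 0.122 in limma. Leaving out wild-type replicate 1, wild-type replicate 3 or knockout replicate 3 gave 0.36, 0.52 and 0.46, with unadjusted p in limma of 0.0999, 0.0566 and 0.0619. After normexp it was 0.27, with a p of 0.0889. Its receptor Tnfrsf14 (HVEM) differed by 0.21 ± 0.21, from 1.44, 1.67 and 1.19 to 1.43, 1.56 and 1.96, and its groups overlapped. Tnfsf15 (TL1A) and Tnfsf9 (the ligand of Tnfrsf9) differed by 0.20 ± 0.19 and 0.11 ± 0.24.

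The other 5 ligands of this group were not tested. Cd70, Tnfsf4 and Tnfsf18 stayed at background throughout, and Tnfsf8 was on 2 arrays of each group. Cd40lg, the T cell ligand of Cd40, was well above background only on wild-type replicate 2, where it measured -3.29, against -7.09 to -6.32 on the other arrays.

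The 7 costimulatory receptors had a median difference of 0.076, with 4 above 0 and 3 below. Tnfrsf9 (4-1BB), an activation receptor of T cells, gave values on 2 probes. The brighter, which carries the GT repeat printed above, measured 2.06, 1.79 and 2.24 with wild-type and 1.71, 1.74 and 1.34 with knockout marrow, a difference of -0.43 ± 0.19. Its groups did not overlap but were only 0.050 apart, and the unadjusted p in limma was 0.057. Without knockout replicates 2 and 3 the difference was -0.32. The other measured -3.23, -3.24 and -3.11 with wild-type and -3.07, -4.16 and -3.22 with knockout marrow, a difference of -0.29 ± 0.29. Here the groups overlapped, and knockout replicate 2 lay about 1 step under all others. The array holds 75 probes with 8 or more TG repeats, all of them tested. Their median level over the 6 arrays was 4.09, against -1.31 over all tested probes, and 97.3% of them were above 0. Whether the brighter probe reads Tnfrsf9 RNA or repeat-bearing RNA in general was not tested. Tnfrsf9 counts among the genes whose groups did not overlap through this brighter probe alone. Among the other receptors of this group, Tnfrsf4 (OX40) had the narrowest range, from -0.80 to -0.53, and differed by 0.09 ± 0.15. Cd40, the receptor through which T cells license macrophages and B cells, differed by -0.26 ± 0.33, Cd27 by 0.076 ± 0.23, Tnfrsf18 (GITR) by 0.18 ± 0.26 and Tnfrsf8 (CD30) by -0.13 ± 0.26. All 5 overlapped between the groups.

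**Figure D4:**
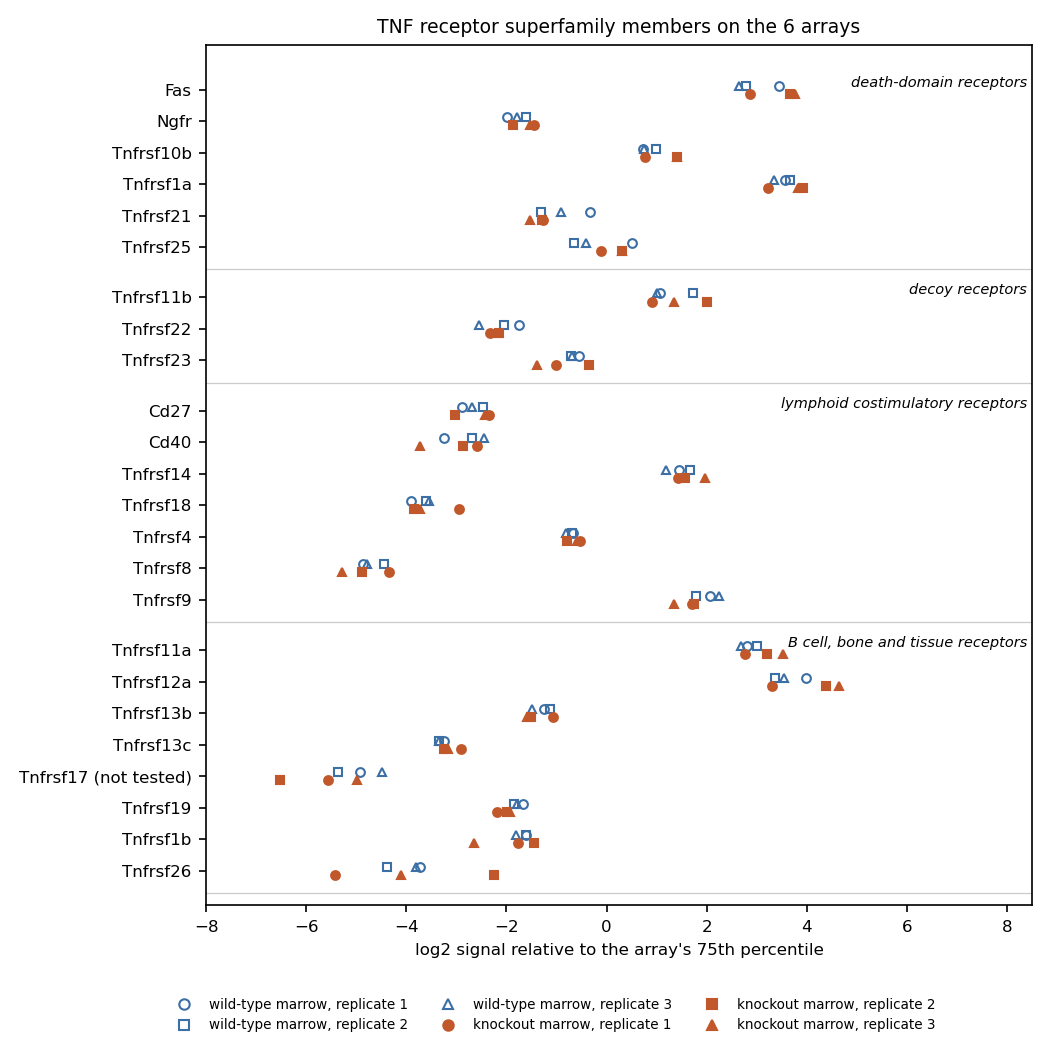
Log2 signal relative to the array's 75th percentile (x axis) for the 24 receptor genes by role, with open blue symbols for the 3 wild-type marrow arrays and filled orange symbols for the 3 knockout marrow arrays, the shape giving the replicate. Knockout replicates 2 and 3 stand right of the wild-type symbols for Fas, Tnfrsf10b, Tnfrsf1a, Tnfrsf11a and Tnfrsf12a while knockout replicate 1 does not. Tnfrsf26 spreads furthest within the knockout group and was not well above background on knockout replicate 1. The other Tnfrsf1a probe, not drawn, did not place knockout replicates 2 and 3 above the wild-type arrays.

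Among the ligands for B cells, bone and tissue cells, Tnfsf13b (BAFF), a survival factor for B cells, was read at chr8:10035561-10035620 on mm9. It measured -1.43, -1.50 and -1.01 with wild-type and -1.63, -1.65 and -2.17 with knockout marrow. The groups did not overlap and were 0.13 apart. The difference was -0.50 ± 0.22, with an adjusted p of 0.577 in limma and 0.0536 before adjustment. It was -0.33 without knockout replicate 3, -0.32 without knockout replicates 2 and 3 and -0.29 after normexp. Over 8 B cell markers, all well above background on every array, deviations ran from -0.17 to 0.15 with wild-type and from -0.55 to 0.37 with knockout marrow. The BAFF receptors Tnfrsf13c and Tnfrsf13b (TACI) differed by 0.20 ± 0.16 and -0.10 ± 0.20. Tnfrsf17 (BCMA), which shares these ligands, was well above background on 2 wild-type and 0 knockout arrays and was not tested. Ltb, which forms the membrane lymphotoxin with Lta, measured -1.29, -1.17 and -0.84 with wild-type and -0.42, -1.86 and -0.90 with knockout marrow, a difference of 0.042 ± 0.35. Its highest and its lowest array were both from the knockout group. The difference was 0.68 without knockout replicates 2 and 3, with an adjusted p of 0.501 in limma (0.0391 before adjustment), and -0.28 without knockout replicate 1. Tnfsf12 (TWEAK) had tested probes at chr11:69500342-69500401 and at the site printed above, both on mm9, which differed by 0.33 ± 0.21 and 0.36 ± 0.22.

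Tnfrsf12a (Fn14), the receptor of TWEAK and a gene switched on in injured smooth muscle, was read at chr17:23812746-23812805 on mm9. It measured 3.99, 3.36 and 3.55 with wild-type and 3.31, 4.39 and 4.64 with knockout marrow. Knockout replicates 2 and 3 were the highest arrays and knockout replicate 1 the lowest. The difference was 0.48 ± 0.36 with a 95% interval from -0.35 to 1.31, and without knockout replicates 2 and 3 it was -0.32. Without knockout replicate 1 it was 0.88, and without knockout replicate 3 it was 0.22. Tnfrsf11a (RANK), the receptor that drives osteoclasts, showed the same order within the knockout group, at 2.77, 3.20 and 3.53 against 2.81, 3.01 and 2.68, a difference of 0.33 ± 0.22. Its ligand Tnfsf11 (RANKL) stayed at background on every array.

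Of the other receptors, Tnfrsf19 (TROY), read at chr14:61582873-61582932 on mm9, measured -1.67, -1.84 and -1.79 with wild-type and -2.20, -1.99 and -1.93 with knockout marrow. The groups did not overlap and were 0.091 apart, and the difference was -0.27 ± 0.16. It was -0.43 without knockout replicates 2 and 3 and -0.082 after normexp. A second Tnfrsf19 probe, at chr14:61589667-61589726, overlapped between the groups and differed by -0.063 ± 0.20. Tnfrsf1b, the TNF receptor without a death domain, differed by -0.28 ± 0.30, and knockout replicate 3 stood alone at -2.64 against -1.81 to -1.45 on the other arrays. Tnfrsf26, an orphan receptor related to the decoys, had the widest range of all tested members. It measured -3.73, -4.39 and -3.81 with wild-type and -5.42, -2.24 and -4.10 with knockout marrow. On knockout replicate 1 the probe was not well above background, so the range includes a background reading, as does the -1.44 below. The knockout values spanned 3.18 and enclosed all wild-type values, and the difference of 0.059 ± 0.71 became -1.44 without knockout replicates 2 and 3. It was 0.81 without knockout replicate 1 and -0.78 without knockout replicate 2.

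The 250 bases before the start of 4 members were read from RefSeq on build GRCm38.p6, where 30 of the 40 genes had an entry. They are printed for the 3 ligands with an unadjusted p under 0.05 and for Fas, the receptor of Fasl. Both strands were searched for the E-box CACGTG and the D-box TTANGTAA of clock factors, GAS (TTCNNNGAA), AP-1 (TGANTCA) and, by name, the ISRE and kappa-B motifs, and capitals mark every match. The windows are chr3:27316827-27317076 (Tnfsf10, plus strand), chr1:161788496-161788745 (Fasl, minus), chr17:57194182-57194431 (Tnfsf14, minus) and chr19:34290409-34290658 (Fas, plus).
Tnfsf10: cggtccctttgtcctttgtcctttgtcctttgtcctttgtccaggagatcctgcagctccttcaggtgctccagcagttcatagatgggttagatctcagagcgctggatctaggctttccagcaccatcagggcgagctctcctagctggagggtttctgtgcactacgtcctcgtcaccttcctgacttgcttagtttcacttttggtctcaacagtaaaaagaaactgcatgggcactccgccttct
Fasl: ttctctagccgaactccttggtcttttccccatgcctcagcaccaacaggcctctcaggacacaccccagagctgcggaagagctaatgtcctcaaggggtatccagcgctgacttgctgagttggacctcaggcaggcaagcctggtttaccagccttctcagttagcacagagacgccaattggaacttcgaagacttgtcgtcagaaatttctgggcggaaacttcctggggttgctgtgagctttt
Tnfsf14: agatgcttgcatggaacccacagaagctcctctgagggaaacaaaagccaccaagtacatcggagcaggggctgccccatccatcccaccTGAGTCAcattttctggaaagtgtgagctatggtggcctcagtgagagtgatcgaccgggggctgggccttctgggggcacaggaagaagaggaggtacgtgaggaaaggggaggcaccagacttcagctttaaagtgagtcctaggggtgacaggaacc
Fas: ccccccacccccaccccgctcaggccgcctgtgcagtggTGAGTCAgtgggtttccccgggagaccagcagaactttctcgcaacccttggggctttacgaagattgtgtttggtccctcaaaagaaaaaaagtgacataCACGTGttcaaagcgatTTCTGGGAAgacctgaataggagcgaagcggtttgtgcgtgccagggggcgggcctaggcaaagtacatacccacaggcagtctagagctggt
The Tnfsf10 and Fasl windows held no match. The Tnfsf14 window held an AP-1 match at bases -160 to -154 from the start. The Fas window held AP-1 at -211 to -205, the E-box at -110 to -105 and GAS at -93 to -85. Over all 27025 RefSeq windows of this length the E-box occurred in 6.05%, the D-box in 2.11%, GAS in 7.18%, AP-1 in 6.87%, ISRE in 3.04% and kappa-B in 7.01%. Among the 30 members with an entry, these counts were 3, 0, 6, 3, 3 and 2. The E-box members were Fas, Tnfrsf4 and Tnfrsf8, and the GAS members Fas, Lta, Ltb, Tnfrsf18, Tnfrsf1a and Tnfrsf1b. A match is a run of letters only, and binding was not measured.

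Genes downstream of these receptors were read from a list of 40 adaptors, kinases, ligases and NF-kappa B factors. Of the 38 tested, 0 passed the adjusted test, 1 had an unadjusted p under 0.05 with a difference above 0 (2.63%, against 3.38% of all genes) and 0 with one below (against 3.89%). Their median difference was 0.12 beside 0.0082 over all genes, with 30 above 0 (78.9%, against 51.2% of all genes) and 8 below. The smallest p belonged to Nfkb1, the p105 and p50 subunit gene of NF-kappa B. It measured -0.43, -0.20 and -0.64 with wild-type and -0.04, 0.32 and 0.28 with knockout marrow, and its groups did not overlap. The difference was 0.61 ± 0.19, with an adjusted p of 0.481 in limma (0.013 before adjustment). Next came Traf6, an adaptor and ubiquitin ligase, at 0.40 ± 0.19, Ikbkb, the IKK beta kinase, at 0.34 ± 0.17, and Tab3, a partner of the kinase TAK1, at -0.28 ± 0.15. The count above 0 was 0 when wild-type replicate 3 was left out and 4 when knockout replicate 1 was.

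A second list held 28 genes that TNF is known to induce, some of them shared with the first list. Of the 22 tested, 0 passed the adjusted test, 1 had an unadjusted p under 0.05 above 0 (4.55%, against 3.38% of all genes) and 0 below (against 3.89%). The median was 0.23 beside 0.0082 over all genes, with 16 above 0 and 6 below. That gene was Nfkbiz, an inducible nuclear partner of NF-kappa B, which measured -2.81, -2.84 and -2.71 with wild-type and -2.15, -1.94 and -2.37 with knockout marrow. Its groups did not overlap, and the difference was 0.64 ± 0.17, with an adjusted p of 0.445 in limma (0.00644 before adjustment). Irf1, an interferon response factor, differed by -0.36 ± 0.19, Birc3, an inhibitor of apoptosis that ubiquitinates Ripk1, by 0.31 ± 0.18 and the chemokine Ccl5 by 0.38 ± 0.24. Without knockout replicate 2 the median of the list was -0.042, and without knockout replicate 3 the count above 0 was 7. Family receptors and ligands named otherwise were not among the members: Ltbr differed by 0.0066 ± 0.14, Eda by -0.12 and Relt by -0.28, and Edar and Eda2r were not tested.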

How the data were processed

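RNA was measured in 6 aortic arches on 1 slide, in 1 scan. The deposited files give each spot's processed signal, an intensity on a linear scale that the authors' software, Agilent Feature Extraction 10.7.3.1, had corrected for background, per the file headers. The authors' series table holds these intensity values rounded, within 0.497% (medians 32.1 to 54.3). Probe positions are the files' own on mm9. Processed signals were put on a log2 scale, each array's 75th percentile over 59305 spots that are not controls was subtracted, outlier spots were left out, and spots of a probe were averaged. Tests used lmFit and eBayes of limma 3.58.1 (R 4.3.3), all two-sided, and p-values were adjusted by Benjamini-Hochberg over 38342 probes, with 0.05 as the threshold; 12 more probes were set aside for outlier spots. Each gene is represented by its brightest tested probe. The fit was tested on simulated data with shifts larger than any member difference, so that test does not address differences of the size seen here. Between 66.4% (knockout replicate 3) and 74.4% (wild-type replicate 1) of an array's spots were well above background and 0 were saturated. The number of arrays limits the precision.

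The members, the lists and the genes to name were chosen with earlier results of these data known. Named genes are the death ligands with Tnfrsf1a, Fas and Tnfrsf10b, members with an unadjusted p under 0.05 or groups that do not overlap, the 5 with the widest range, and the 4 smallest p of each pathway list. Other members are given by role. The alternatives were normexp background correction with an added offset of 50, median centring and other normalization, and a stricter filter. The series table, a replicate block, array weights, the variance model and leaving out each array were also used. Leaving out knockout replicates 2 and 3 together was chosen after seeing the data and leaves 1 knockout array, assumed to vary like the others. Whether probes lie in coding sequence or in a UTR was not analysed here.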

Additional observations from a re-analysis of the deposited data

How the results depend on the processing

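Of 17 alternatives, 16 gave values for named members, and 0 of 205 such values of 13 members passed the adjusted test. The other, the mean over a gene's tested probes, gave a median of 0.081 over the members. Tnfsf10 kept its direction in 16 of 16 alternatives that gave a value (-0.98 to -0.36, adjusted p in limma 0.163 to 0.9999), with an unadjusted p under 0.05 in 12. Tnfsf14 did so in 16 of 16 (0.27 to 0.61, 11 of them under 0.05), and Fasl in 14 of 15, with 0.0078 after normexp; with only probes well above background on all 6 arrays, Fasl, Tnf and Tnfrsf26 had no value. The count of all probes past the adjusted test, 1, was 4 after normexp, 2 with median centring, 0 with that stricter filter, 2 with array weights, 2 when the variance was trended and robust, 2 without knockout replicates 2 and 3, and 1 to 2 with each array left out.

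Member genes at an unadjusted p under 0.05 numbered 1 above and 2 below 0. The count above was 0 after normexp, 5 with array weights, 2 without knockout replicates 2 and 3 and 0 to 5 with each array left out. The count below was 1 with the replicate block, 4 with array weights, 1 without those mice and 0 to 4 with each array left out. The members' median was -0.056 without those mice and 0.0087 to 0.12 with each array left out. For TNF receptor signalling the count above 0 was 4 with array weights and 0 to 4 with each array left out, with medians of 0.07 to 0.16. For TNF-induced genes the count above was 2 after normexp, 2 with array weights, 4 without those mice and 1 to 7 with each array left out; the count below was 1 after normexp, 2 with array weights and 0 to 2 with each array left out, with medians of -0.042 to 0.35.

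Signs turned for Ltb with array weights (-0.31) and, without knockout replicates 2 and 3, for Tnfrsf1a (-0.30), Fas (-0.093), Tnfrsf10b (-0.046), Tnfrsf26 (-1.44) and Tnfrsf12a (-0.32). With each array left out, Ltb ran from -0.28 to 0.44, Tnfrsf26 from -0.78 to 0.81, Tnf from -0.017 to 0.38 and Tnfrsf1a from -0.0023 to 0.34. The cause of these changes was not tested. Deviations of same-numbered arrays correlated at 0.12, 0.05 and -0.28. Such few values gave no sign that replicate numbers pair the mice but cannot exclude it, and the block result stands only here. Low signal limits Fasl, Tnf, Tnfrsf8 and Tnfrsf26, which were not well above background on every array and entered the tests through the wild-type arrays only.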
